A study of Rattus norvegicus with 10 samples.

Results

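Foxo1, Foxo3 and Foxo4 encode forkhead transcription factors of the FOXO family, and Eif4ebp1, Eif4ebp2 and Eif4ebp3 encode small proteins that bind the cap-binding protein eIF4E and hold back cap-dependent translation. These 6 genes, of 14217 that the array annotation names alone on a probe set, were followed in the livers of 10 rats. Every probe set to which that annotation gives exactly 1 symbol, and one of the 6, was taken, which found 10 of the 31099 on the array, 7 for Foxo genes and 3 for Eif4ebp genes. The families were selected on earlier results of the mulberry-against-control contrast in these same arrays, in which Eif4ebp3 stood among the genes with the smallest unadjusted p. For that reason every difference of the 6 genes between the groups below is a description. P-values and counts given for group differences come from a fit over all probe sets, and nothing about the 6 genes is read from them.

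The 5 mulberry rats were given dried mulberry leaf powder at a stated daily dose of 500 mg for each kg of body weight, and the 5 control rats were given 0 mg. The labels put the dosing on a 6 weekly basis without saying more. All 10 rats were of the Wistar/ST strain, ate a high-fat diet, were dosed by gastric probe after an overnight fast with the same carboxymethylcellulose suspension, and were killed after 7 weeks. The labels used here give neither age nor sex. Each array held the liver RNA of 1 rat, and in liver pieces fewer cells of a type and less RNA per cell cannot be told apart.

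In liver, insulin acts through its receptor and the kinase AKT to phosphorylate FOXO proteins, which then leave the nucleus. During fasting, unphosphorylated FOXO1 switches on genes of glucose output and insulin sensing. The same pathway activates the kinase complex mTORC1, which phosphorylates the eIF4E-binding proteins and makes them release eIF4E. Both families are therefore controlled largely at the protein level, which an mRNA array does not read. In the fruit fly the single Foxo factor activates the gene of the eIF4E-binding protein, which ties the families together in that species.

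The stretch of 250 bases before the annotated start is shown for Eif4ebp3, the translation repressor that differed most between the groups, and for its relative Eif4ebp2, which differed little. Both come from the RefSeq promoters of the rat assembly GRCr8, which held a window for 4 of the 6 genes (Foxo1, Foxo4, Eif4ebp2 and Eif4ebp3). Eif4ebp3 lies at chr18:28540074-28540323 on the plus strand and Eif4ebp2 at chr20:29942923-29943172 on the minus strand. Capitals mark matches, on either strand, to the GC box letters GGGCGG and to the cAMP-response core TGACGT.
Eif4ebp3: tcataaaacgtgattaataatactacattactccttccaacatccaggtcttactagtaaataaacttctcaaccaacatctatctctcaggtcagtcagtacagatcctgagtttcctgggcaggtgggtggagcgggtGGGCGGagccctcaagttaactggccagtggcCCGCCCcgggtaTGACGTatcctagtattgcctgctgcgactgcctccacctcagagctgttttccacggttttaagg
Eif4ebp2: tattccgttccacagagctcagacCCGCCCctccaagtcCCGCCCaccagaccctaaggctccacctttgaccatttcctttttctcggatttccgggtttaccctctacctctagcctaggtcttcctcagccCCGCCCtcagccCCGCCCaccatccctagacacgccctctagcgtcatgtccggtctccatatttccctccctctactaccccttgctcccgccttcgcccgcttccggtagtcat

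The Eif4ebp3 window held 1 TGACGT, from 66 to 61 bases before the start, and 2 GC boxes. The Eif4ebp2 window held 4 GC boxes and no TGACGT. Over the 33469 RefSeq windows of the same length, 6.95% held TGACGT and 30.5% held GGGCGG. The letters TGTTTAC, which FOXO factors favour, were in 3.21% of all windows, and the E-box CACGTG, which TFE factors favour, was in 5.59%. Neither motif was present in any of the 4 windows, and the Foxo1 and Foxo4 windows held none of the 4 motifs. Only exact letters were searched for, so close variants of a motif are not covered. The Foxo4 window lies inside the span that RefSeq gives the gene, so it is not the stretch before the outermost annotated start. The G and C content was 49.6% for Eif4ebp3 and 59.6% for Eif4ebp2, against a median of 51.2% over all windows. No motif overlapped another in these windows. These matches describe letters only.

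Eif4ebp3 had a lower mean with mulberry and Foxo4 a higher one, while the tested probe sets of the other 4 genes had smaller differences. Of the 10 probe sets, 6 passed the filter on low intensity, 1 for each gene, and only these entered the fit over all probe sets. The filter kept probe sets whose mean of log2(intensity + 16) over the 10 arrays lay above 6.27, an intensity of 61.1, and left 18625 probe sets. Intensity here is the authors' linear probe set signal, and a difference is the mean of log2(intensity + 16) in mulberry rats less that in control rats, given with its standard error (SE) from limma's moderated linear model. Because levels of different probe sets are not comparable, each gene was compared only with itself across rats. The exception is the sums over cell markers below, in which the brightest probe sets weigh most.

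**Figure D1:**
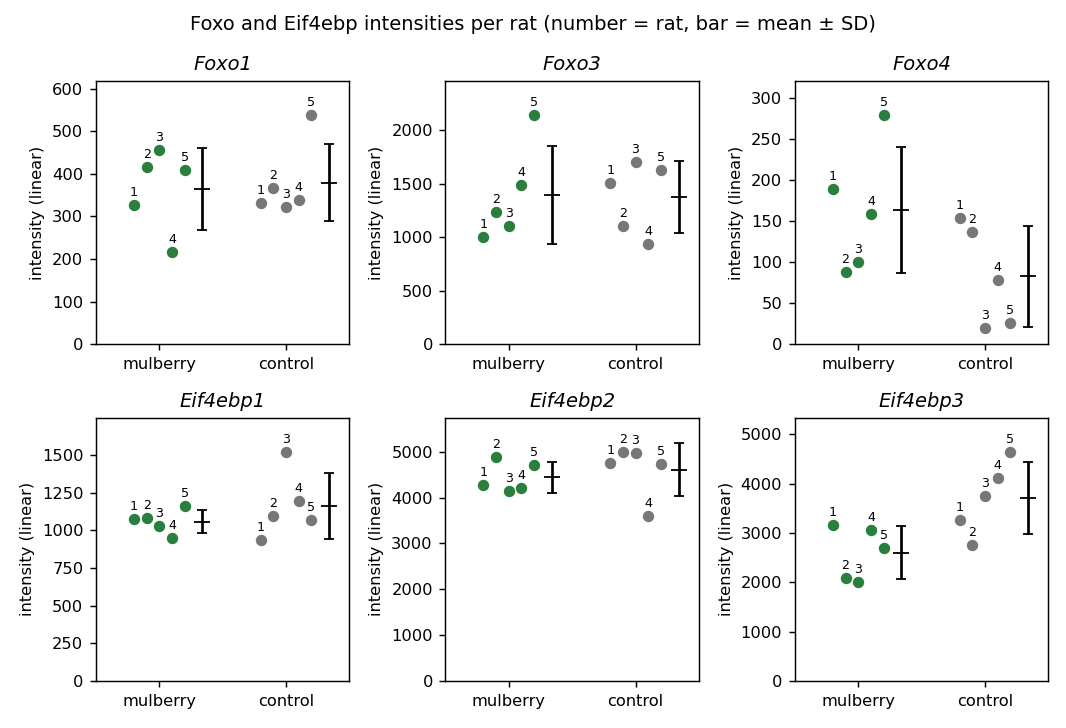
Intensity (linear scale, from 0) of the tested probe set of each gene in every rat. Points are rats with their numbers, mulberry at the left and control at the right of each panel, and bars give the mean and SD over 5 rats. For Eif4ebp3 3 mulberry rats lie below the lowest control rat, and for Foxo4 3 mulberry rats lie above the highest control rat.

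Eif4ebp3, in cultured cells a TFE3-induced repressor that appears when mTORC1 is inhibited for long, had intensities of 3158, 2084, 1997, 3050.3 and 2687 in mulberry rats 1 to 5, against 3267, 2748, 3742, 4103 and 4639 in control rats 1 to 5. All 5 mulberry rats lay below the control median of 3742, and 3 of them (rats 2, 3 and 5) lay below the lowest control rat, so the groups still overlapped. The means were 2595 ± 537 in mulberry and 3699.8 ± 731 in control rats (SD, n = 5 each). The difference was -0.51 ± 0.17 (SE) on the log2 scale, a ratio of 0.70 with a 95% interval of 0.55 to 0.90 that makes no allowance for the gene having been picked out for this contrast. Leaving out each rat in turn kept it between -0.61 and -0.42. Of all tested probe sets, 1.81% had a difference at least as large in either direction. Since the gene was picked out for this contrast, that share is a description and not support.

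Within the mulberry group, rats 1 and 4 had the highest Eif4ebp3 and also the lowest ratios of 3′ to 5′ signal for Gapdh and beta-actin, which are read as a measure of RNA integrity. Their log2 ratios were 0.12 and 0.024 for Gapdh and 1.49 and 1.29 for beta-actin, while the other mulberry rats lay between 0.27 and 0.34 for Gapdh and between 1.60 and 1.95 for beta-actin. In the control group, rats 3, 4 and 5, with the highest Eif4ebp3, had the lowest Gapdh ratios, at -0.012, 0.090 and 0.32, against 0.34 in both control rat 1 and control rat 2. Among rats 3, 4 and 5 the order ran the other way, with Eif4ebp3 at 3742, 4103 and 4639. Their beta-actin ratios were 1.51, 1.70 and 2.10, against 1.67 in control rat 1 and 1.88 in control rat 2. Over whole groups the Gapdh ratio ranged from 0.024 to 0.34 in mulberry and from -0.012 to 0.34 in control rats. The part of RNA integrity in the Eif4ebp3 values was not tested.

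In the RefSeq annotation of GRCr8, Eif4ebp3 follows Ankhd1 on rat chromosome 18. In human, transcripts are annotated that run through both genes. Ankhd1, a large ankyrin-repeat protein, was read by 3 tested probe sets, which were looked at after the Eif4ebp3 values were known. Their differences were +0.32 ± 0.25, +0.15 ± 0.29 and +0.14 ± 0.14 (SE), all of the opposite sign to Eif4ebp3. Whether the Eif4ebp3 probe set also reads joined transcripts was not tested.

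Eif4ebp1, the insulin-responsive eIF4E-binding protein described first in fat and muscle, had intensities of 1072, 1079, 1029.6, 946 and 1163 in mulberry rats 1 to 5, against 935, 1094, 1519, 1191 and 1067 in control rats 1 to 5. The mulberry rats lay inside the control range. Their spread was the narrower one, with means of 1058 ± 79.2 in mulberry and 1161 ± 220 in control rats (SD, n = 5 each), and control rat 3 alone stood high. The difference was -0.12 ± 0.13 (SE), or -0.016 without control rat 3 and -0.19 without control rat 1.

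Eif4ebp2, the eIF4E-binding protein best known from brain, had intensities of 4265, 4892, 4151, 4199 and 4703 in mulberry rats 1 to 5, against 4750.2, 4993, 4966, 3595 and 4735 in control rats 1 to 5. Again every mulberry rat lay inside the control range, which control rat 4 widened downward. Means were 4442 ± 334 in mulberry and 4608 ± 579 in control rats (SD, n = 5 each). The difference of -0.046 ± 0.10 (SE) had a 95% interval of -0.27 to 0.18, or a ratio of 0.83 to 1.13. Without control rat 4 it was -0.13, and without control rat 2 it was -0.014.

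Foxo4, the X-linked family member, had intensities of 189, 88.1, 101, 159 and 279 in mulberry rats 1 to 5, against 153, 137, 19.9, 78.8 and 25.6 in control rats 1 to 5. All 5 mulberry rats lay above the control median of 78.8 and 3 (rats 1, 4 and 5) above the highest control rat, while control rats 3 and 5 lay far under the filter intensity of 61.1. The means were 163 ± 77.0 in mulberry and 82.9 ± 61.5 in control rats (SD, n = 5 each). The difference was +1.03 ± 0.45 (SE), a ratio of 2.04 with a 95% interval of 1.04 to 3.98, again with no allowance for the selection. It was 0.73 without control rat 3 and 1.29 without control rat 1, and 0.68 with a pseudocount of 64, which damps dim values. Of tested probe sets, 0.097% differed by as much in either direction, a share that is a description only, since the families were selected on this contrast. Foxo4 also varied between rats of 1 group more than 98.6% of tested probe sets did, with a residual SD of 0.85 against a median of 0.26.

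Foxo1, the main insulin-regulated FOXO factor of liver, had intensities of 327, 415, 456, 215 and 409.6 in mulberry rats 1 to 5, against 331, 367, 323, 339 and 537 in control rats 1 to 5. The groups overlapped widely, and the extremes were mulberry rat 4 at the low end and control rat 5 at the high end. Means were 365 ± 95.8 in mulberry and 379 ± 89.7 in control rats (SD, n = 5 each), with a difference of -0.072 ± 0.20 (SE) and a 95% interval of -0.51 to 0.36. The sign turned to +0.096 without mulberry rat 4, and it turned without control rat 5 and with the median over the gene's probe sets too.

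Foxo3, which in many cell types drives genes of stress resistance and autophagy, had intensities of 1001, 1234, 1109, 1487 and 2138 in mulberry rats 1 to 5, against 1504, 1103, 1702, 936 and 1632 in control rats 1 to 5. Mulberry rat 5 was the highest of all 10 and control rat 4 the lowest. Means were 1394 ± 454 in mulberry and 1375 ± 338 in control rats (SD, n = 5 each). The difference of +0.0030 ± 0.22 (SE) had a 95% interval of -0.46 to 0.47, and its sign turned with a median shift, with the median over the gene's probe sets, and without mulberry rat 4, mulberry rat 5, control rat 2 or control rat 4.

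The 4 probe sets under the filter, 2 of Foxo1 and 2 of Foxo3, gave low intensities. One Foxo1 probe set (1375688_at) had medians of 5.52 in mulberry and 7.44 in control rats. The other (1377502_at) ranged from 19.3 to 88.3 in mulberry and from 4.46 to 70.2 in control rats, with a difference of +0.74 ± 0.42 (SE) in the fit without a filter. For Foxo3, 1376229_at had medians of 6.55 in mulberry and 6.02 in control rats, and 1376210_at had medians of 37.0 in mulberry and 49.5 in control rats. With group means removed, r between probe sets of 1 gene lay between -0.28 and 0.38 over 10 rats, which share arrays and scaling.

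**Figure D2:**
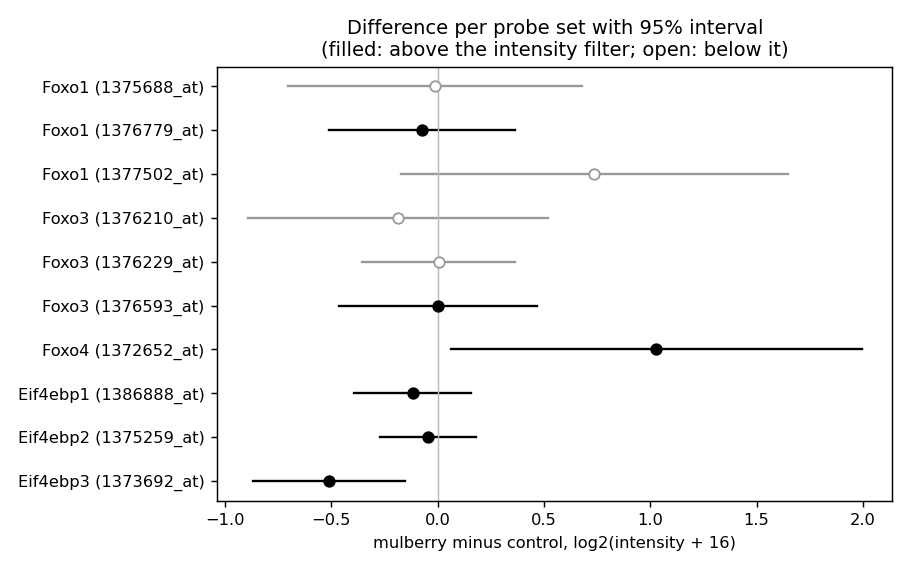
Difference (mulberry minus control, log2(intensity + 16)) for each of the 10 probe sets, with the 95% interval of the linear model. Filled points passed the intensity filter, open points did not and come from the fit without a filter. The intervals run from 0.061 to 1.99 for Foxo4 and from -0.87 to -0.15 for Eif4ebp3. They make no allowance for the families having been selected on this contrast, so their place relative to 0 is not read as a test.

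With limma and Benjamini-Hochberg adjustment, 0 of the 6 tested member probe sets had an adjusted p under 0.05, as did 0 of all 18625, or 0%. The smallest adjusted p over the array was 0.9999. At an unadjusted p under 0.05 there were 2 member probe sets, Foxo4 on the higher side and Eif4ebp3 on the lower side, where the array as a whole had 1.07% higher and 0.671% lower. Since the genes were proposed with this contrast known, nothing is read from that count. None of the 6 had groups that did not overlap, against 0.344% of all tested probe sets. The median difference of the 6 was -0.059, beside 0.0075 over all tested probe sets.

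How the genes moved together between rats of 1 group was not used in choosing them, although the size of that spread enters the p by which Eif4ebp3 stood out. For each of the 15 pairs of genes, the correlation across the 10 rats was computed with group means removed and tested by exact permutation of rats within groups. Pearson's r ranged from -0.47 to 0.56, with 8 positive and 7 negative values and a median of 0.064. The number of pairs at an adjusted p under 0.05 was 0, and also 0 at an unadjusted p under 0.05. The smallest adjusted p over the 15 pairs was 0.926 by the exact permutation test.

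The highest value was that of Foxo3 with Eif4ebp2, at r = 0.56 and rho = 0.41 (exact permutation p = 0.084 and p = 0.273, both two-sided), and it was 0.28 without mulberry rat 5 and control rat 4. The lowest was that of Foxo4 with Eif4ebp1, at r = -0.47 and rho = -0.33 (exact permutation p = 0.322 and p = 0.426), and r was -0.27 without control rats 3 and 5 and -0.041 without control rat 3 alone. Foxo4 and Eif4ebp3, the pair with the largest group differences, had r = -0.16 and rho = -0.22 within groups (exact permutation p = 0.675 and p = 0.60), and r was 0.13 without control rats 3 and 5. Eif4ebp2 and Eif4ebp3 had r = -0.36 and rho = -0.44 (exact permutation p = 0.354 and p = 0.231), and r was -0.73 without mulberry rat 3 and control rat 4. None of these relations passed the test.

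**Figure D3:**
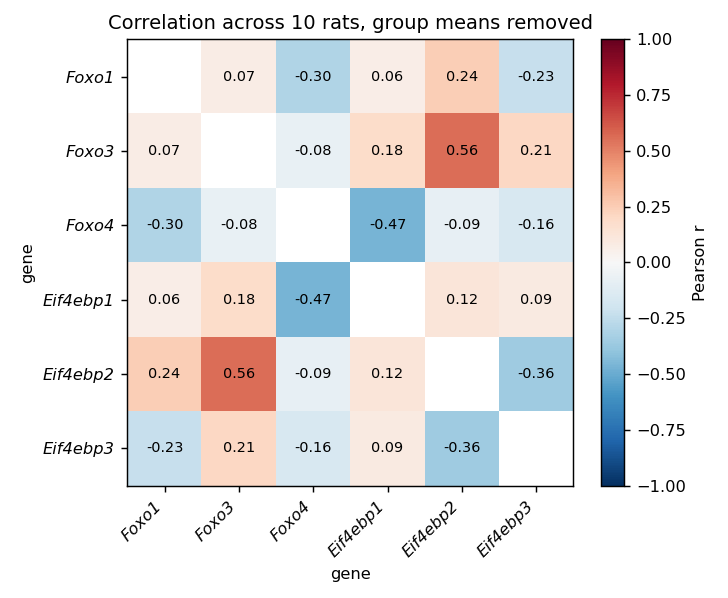
Pearson correlation between the 6 genes across 10 rats after subtraction of each group's mean, 1 tested probe set per gene. Values run from -0.47 (Foxo4 with Eif4ebp1) to 0.56 (Foxo3 with Eif4ebp2), and none passed the permutation test.

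Control rat 5 had the highest Foxo1 and Eif4ebp3 of its group but one of the lowest Foxo4 values, at -0.98 from its group mean on the log2 scale. Control rat 3 combined the lowest Foxo4, at -1.19 from its group mean, with the highest Eif4ebp1, at 0.40 above it. Mulberry rat 5 lay above its group mean for all 6 tested probe sets, as the highest of its group for Foxo3 (0.66), Foxo4 (0.82) and Eif4ebp1 (0.14), and by 0.20 for Foxo1, 0.085 for Eif4ebp2 and 0.075 for Eif4ebp3. Eif4ebp2 stayed within 0.15 of the group mean in every rat except control rat 4, at -0.35.

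**Figure D4:**
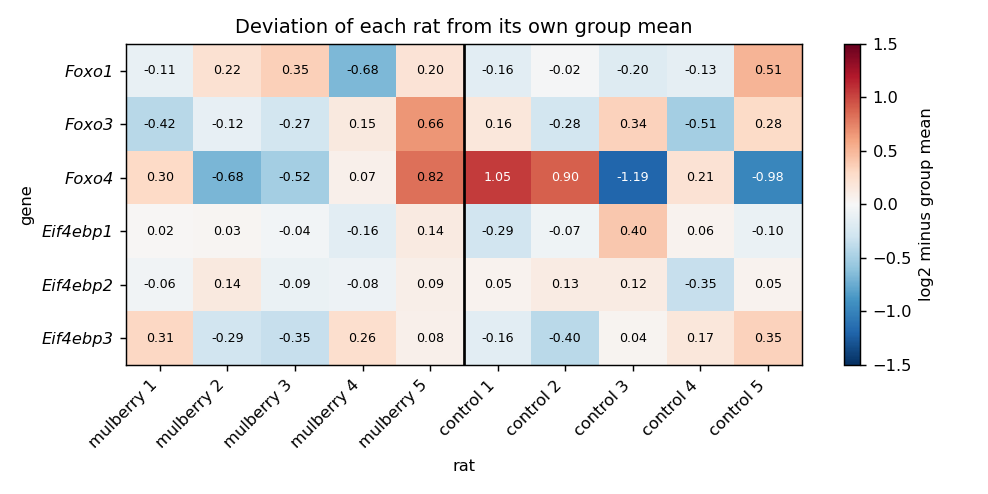
Deviation of each rat from its own group mean on the log2(intensity + 16) scale, genes in rows and rats in columns, mulberry at the left of the line and control at the right. Foxo4 has the widest range (-1.19 to 1.05), and Eif4ebp2 the narrowest outside control rat 4.

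The genes whose pattern across rats was most like each member were picked from 10327 other genes by r with group means removed. For Foxo3 these were Uba2 (r = 0.98), a subunit of the SUMO-activating enzyme, the PGC-1-related coactivator Pprc1 (0.95) and Tspan15 (0.93). For Foxo1 they were Wdr6 (0.95), the nucleolar protein gene Nop56 (0.95) and the exocyst subunit Exoc3 (0.94). Foxo4 was most like the chloride transport gene Clcn6 (0.94), Tedc1 (0.91) and the mitochondrial aldehyde dehydrogenase Aldh1b1 (0.91). Eif4ebp1 was most like Tmem120a (0.97), the retinol saturase Retsat (0.97) and Snrnp27 (0.96). Eif4ebp2 was most like Ranbp1 (0.95), the ribosome-rescue factor Pelo (0.95) and the nuclear pore gene Nup62 (0.95). Eif4ebp3 was most like Runx3 (0.94), Fam234b (0.91) and the dynein light chain Dynll2 (0.89), and had 2 genes with r over 0.9, while Eif4ebp1 had 37. With 10 rats and so many genes searched, these values are a description.

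Genes upstream of both families did not pass the test, and neither did any of the 18625 probe sets tested. The count of 0 past the test, here and for the lists that follow, is therefore not particular to those genes. Of 22 genes from the insulin receptor to AKT, 19 were tested; the mean was higher with mulberry for 5 and lower for 14, and 0 passed in either direction. Their median difference was -0.032, against 0.0035 over all 10328 genes tested, of which 51.3% had a higher mean. The receptor gene Insr, itself a FOXO target, was measured at 656 ± 69.5 in mulberry and 764 ± 83.7 in control rats (SD, n = 5 each), a difference of -0.21 ± 0.12 (SE). Trib3, a pseudokinase that restrains AKT, was at -0.59 ± 0.37, or -0.31 without control rat 3. Akt1 (-0.025 ± 0.13) and Akt2 (-0.030 ± 0.10) had signs that turned when single rats were left out, and for Akt2 with array weights.

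Among 24 modifiers and partners of FOXO, 20 were tested, with 8 higher and 12 lower means, a median of -0.0085 and 0 past the test. The exportin Xpo1, which carries FOXO proteins out of the nucleus, was at +0.19 ± 0.12 and the kinase Nlk at -0.10 ± 0.11, or -0.013 without control rat 1. The coactivator Ppargc1a was at +0.043 ± 0.15, a sign that turned without mulberry rat 4 or control rat 1.

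Genes known as FOXO targets were split, with 15 higher and 16 lower means among 31 tested of 34, a median of -0.0090 and 0 past the test. Igfbp1, a secreted binder of insulin-like growth factors that FOXO1 activates in fasted liver, had intensities of 13607, 4945, 1679.8, 4568 and 3863 in mulberry rats 1 to 5, against 11626, 6845, 7809, 5116 and 6466 in control rats 1 to 5. Of the mulberry rats 4 lay below the lowest control rat and rat 1 above the highest. The difference was -0.67 ± 0.41 (SE), or -1.06 without mulberry rat 1 and -0.31 without mulberry rat 3. Angptl4, the lipoprotein lipase inhibitor, was at +0.35 ± 0.20, or +0.22 without control rat 3 or control rat 4 and +0.16 with array weights. Irs2, an insulin receptor substrate (+0.025 ± 0.17), and the gluconeogenic Pck1 (-0.0090 ± 0.067) lay near 0, with signs that turned when single rats were left out, for Irs2 also with a median shift, and for Pck1 also with array weights.

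On the side of translation, mTORC1 and its regulators had 16 higher and 14 lower means among 30 tested of 34, with a median of 0.0026 and 0 past the test. Mtor itself was at -0.034 ± 0.12 and its partner Rptor at -0.016 ± 0.14, and both signs turned when single rats were left out. Ddit4, a stress-induced inhibitor of mTORC1, was at -0.30 ± 0.21, or -0.14 without mulberry rat 3, and Tbc1d7, a subunit of the complex that restrains mTORC1, at +0.17 ± 0.15, or +0.26 without control rat 3. In the S6 kinase branch, 4 of 6 tested genes had a higher mean, with Rps6 at +0.11 ± 0.11, or +0.056, +0.18 and +0.039 without mulberry rat 1, 2 or 4, and the elongation factor kinase Eef2k at -0.14 ± 0.27, which turned to +0.044 without control rat 3 and turned with array weights. The kinase gene Rps6kb1 was at +0.044 ± 0.17, a sign that turned without mulberry rat 3 or control rat 3 and with array weights.

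Genes of cap binding and the eIF4F complex, with regulators such as the kinases Mknk1 and Mknk2, had 11 higher and 8 lower means among 19 tested of 20, with a median of 0.0064 and 0 past the test. Eif4e, the cap-binding target itself, averaged 3526 ± 409 in mulberry and 3520 ± 551 in control rats (SD, n = 5 each), a difference of +0.0083 ± 0.12 (SE) whose sign turned with a median shift and without any of 4 single rats. The scaffold Eif4g1 was at +0.030 ± 0.079, with a range of +0.0078 to +0.049 when mulberry rat 2, mulberry rat 3 or control rat 5 was left out and +0.0026 with a median shift, and its relative Eif4g2 at +0.11 ± 0.076, or +0.063 without control rat 3. The phosphatase Ppm1g was at -0.15 ± 0.10. The MiT/TFE factors and lysosomal genes had 4 higher and 7 lower means among 11 tested, with a median of -0.029 and 0 past the test. In that list Tfe3 was at -0.13 ± 0.11, Tfeb at -0.067 ± 0.15 with a sign that turned without mulberry rat 3 or control rat 5, Tfec at +0.16 ± 0.13, or +0.10 without control rat 1, and the membrane glycoprotein Gpnmb at +0.34 ± 0.19, or +0.22 without mulberry rat 4. Over the 7 lists, 0 genes had an unadjusted p under 0.05 in either direction and 0 had groups that did not overlap. Over all tested probe sets, 1.07% were higher and 0.671% lower at that limma p, and 0.344% had groups that did not overlap. With shares so small, the counts of 0 are not read as a result about the lists.

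**Figure D5:**
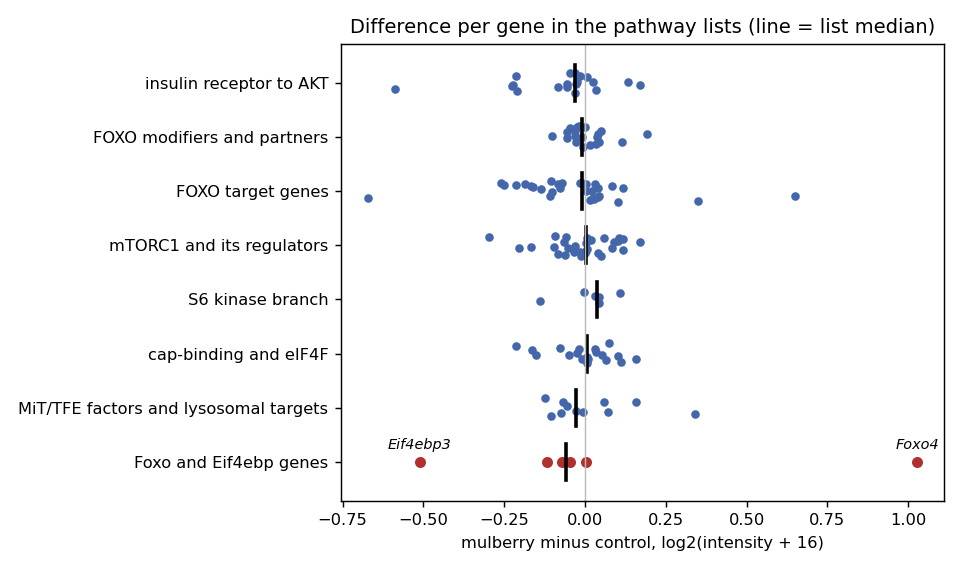
Difference (mulberry minus control, log2(intensity + 16)) of each tested gene in the 7 pathway lists and of the 6 Foxo and Eif4ebp genes, with a line at each median. Foxo4 (+1.03) lies beyond every gene of the lists, and Eif4ebp3 (-0.51) beyond all but Igfbp1 (-0.67) and Trib3 (-0.59) on the lower side.

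The arrays were alike, with r between 0.957 and 0.975 for pairs of arrays over all probe sets and median intensities between 97.5 and 118. Hepatocyte markers were measured as the liver label implies, with 11 of 12 on the array, 11 of them above the filter, 10 higher and 1 lower means with a median difference of 0.037, and a summed intensity of 266241 to 330354 in mulberry and 268171 to 319712 in control rats. Of the markers of other cells, both tested neutrophil genes, of 5 on the array, had a lower mean, with a summed intensity of 114 to 273 in mulberry and 268 to 365 in control rats, and the other 3 (Camp, Csf3r and Mmp8) lay under the filter. These were S100a9 (-0.77 ± 0.19) and S100a8 (-0.62 ± 0.27), both named after their values were seen. Kupffer cell and macrophage markers (10 tested, 7 higher and 3 lower) summed to 12818 to 30439.7 in mulberry and 20394 to 28152 in control rats. Of these Cd68 (+0.39 ± 0.18) and Cd14 (-0.38 ± 0.14), of opposite sign, had an unadjusted p under 0.05, and both were named after their values were seen. Lyz2, at 4017 ± 3815 in mulberry and 6151 ± 3147 in control rats (SD, n = 5 each), had the largest SD of that list. Endothelial markers (10 tested, 6 higher and 4 lower) summed to 10361 to 12276 in mulberry and 9741 to 11859 in control rats, and stellate cell markers (10 tested, 7 higher and 3 lower) to 4763 to 5989 in mulberry and 3904 to 6008 in control rats. Bile duct markers (3 tested of 6 on the array) summed to 425 to 702 in mulberry and 466 to 605 in control rats, lymphocyte markers (5 of 9) to 672 to 739 in mulberry and 563 to 769 in control rats, and red blood cell markers (3 of 4) to 23221 to 27439 in mulberry and 17238 to 30016 in control rats. Adipocyte markers (2 of 6) summed to 1136 to 1453 in mulberry and 813 to 1703 in control rats, with Adipoq, Fabp4, Lep and Plin1 under the filter. Of 8 skeletal muscle markers only Myh1 passed the filter, at 15837 ± 1224 in mulberry and 13996 ± 616 in control rats (SD, n = 5 each). Its difference was +0.18 ± 0.074 (SE), with an unadjusted p of 0.034 by limma. Acta1, Actn3, Ckm, Mb, Myh2, Myh4 and Tnnt3 lay under the filter, so the bright Myh1 signal is not read as a measure of muscle. What that probe set reads was not tested. The part of the listed cell types in the Foxo4 and Eif4ebp3 values was not tested either.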

How the data were processed

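Liver RNA of 10 rats was hybridised to 1 Affymetrix array each. The authors deposited linear signal intensity values, 1 per probe set and array; MAS5 and the affy package are named, per the submitters' processing notes, without versions or roles. Each array had a mean of 500 after trimming 2% at each end, with a floor of 1, and was used without further scaling. Detection calls were not used here.

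Log2(intensity + 16) was computed, 57 array controls were dropped, as was every probe set not above the 40th percentile of mean level, and limma 3.58.1 in R 4.3.3 (lmFit, eBayes with a trend) compared mulberry with control rats over 18625 probe sets, two-sided, with Benjamini-Hochberg adjustment and a threshold of 0.05. Precision is limited by having 5 arrays a group. For counts of genes (10328), the brightest tested probe set stood for each. Names came from the platform annotation (20826 probe sets with 1 symbol, 436 with several, 9780 with none), of which 20758 matched GRCr8 RefSeq genes by Entrez identifier. The fit was tested on simulated data. Other steps ran in Python 3.11.15 with scipy 1.17.1 and pandas 2.3.3, and plots in matplotlib 3.10.9.

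The members and lists were chosen with earlier results of these data known. All member probe sets were named, with 2 genes per pathway list of the largest moderated t, a fixed set of 15 pathway genes where tested, and the 3 genes most like each member. Alternatives were other pseudocounts, filters, scalings and variance settings, the replicate block, the median over probe sets and leaving out each rat. Rats of the same number did not deviate together (r from -0.33 to 0.096 over tested probe sets). Such r cannot exclude that the numbers stand for pairs. The main fit did not use the numbers.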

Additional observations from a re-analysis of the deposited data

Results flagged for a closer look

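In groups of 5 rats, a value was looked at again where its gap to the nearest rat exceeded 0.71 of the group's range, both taken on the log2(intensity + 16) scale while the values below are linear intensities, which chance gives in about 1 of 20 groups. Of 108 groups looked at, 10 had such a rat. Some of these groups belong to genes picked for their likeness to a member, so the groups are not independent. Control rat 5 stood above its group for Foxo1 on both the tested probe set 1376779_at (537, others 323 to 367, gap 0.753) and the dim 1375688_at (26.9, others 3.17 to 7.58, gap 0.743). Mulberry rat 1 stood high on the same dim Foxo1 probe set (40.6, others 2.06 to 8.91, gap 0.719), and control rat 4 on the dim Foxo3 probe set 1376229_at (14.6, others 3.52 to 6.15, gap 0.718). For Eif4ebp2, control rat 4 lay at 3595 against 4735 to 4993 in the other control rats, with a gap of 0.838.

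Control rat 4 was the low one for 2 of the 3 genes most like Eif4ebp2, Ranbp1 (6.09, others 60.1 to 80.4, gap 0.84) and Nup62 (385, others 593 to 685, gap 0.747). Mulberry rat 4 was low for Wdr6 (217, others 372 to 437, gap 0.769), a gene most like Foxo1. Such genes were picked by r with the member over these same rats, so sharing its extreme rat follows from the picking. In the pathway lists, control rat 3 was low for Rps6kb1 (393, others 616 to 728, gap 0.727), and mulberry rat 1 was high for Eif4g2 (15184, others 13609.6 to 13752, gap 0.905).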

How the results depend on the processing

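The count of probe sets at an adjusted p under 0.05 was 0 in the 19 alternative fits, and the count at an unadjusted p under 0.05, 325 with the settings used, was 878 with no filter, 171 with a filter at the 60th percentile, 286 with the replicate block and 316 to 408 when single rats were left out. The difference of Eif4ebp3 stayed between -0.61 and -0.42 and that of Foxo4 between 0.68 and 1.29 in every fit that tested them; Foxo4 did not pass the filter at the 60th percentile. With the replicate block the Eif4ebp3 difference was -0.51 ± 0.14 (SE) and the Foxo4 difference 1.03 ± 0.43 (SE), and no call changed; 1 of 5 mulberry rats correlated best with the control rat of its own number. For Foxo1, the median over its 3 probe sets gave 0.87 in place of -0.072, since that median is mostly taken from a dim probe set; for Foxo3 the same choice gave -0.19 in place of 0.0030, and r of Foxo3 with Eif4ebp2 became 0.020. The count of correlated pairs was 0 in all 15 alternatives. For the named genes outside the 6 members, 0 differences shifted beyond the rat-to-rat spread. That count decides little, because leaving out 1 of 5 rats shifts a group mean by less than such a spread. Changing the filter or adding the replicate block leaves a difference as it was. Smaller shifts did occur. Without single rats, Trib3 ran from -0.79 to -0.31, Igfbp1 from -1.06 to -0.31 and Eef2k from -0.34 to +0.044. Signals near background limit Foxo4 in control rats and the 4 dim probe sets.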
